A study of Rattus norvegicus with 6 samples.

Results

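Signals of 10 genes of the BMP and TGF-beta pathways were followed in fetal rat lung epithelial cells with and without mechanical strain. The genes were the BMP ligand Bmp4, the TGF-beta ligands Tgfb1, Tgfb2 and Tgfb3, the type I receptors Bmpr1a and Tgfbr1, the inhibitory Smad Smad7 and the target genes Id1, Id2 and Id3. They were taken by name, as every probe set of the Affymetrix rat E230A array whose annotated symbol is one of the 10, which gave 15 of 15866 probe sets, for 10 of the 10411 genes named on the array by a probe set with 1 symbol. A filter on dim probe sets, set at a mean signal of about 115.5, left 14 of the 15 for testing, with at least 1 for each gene. Only the probe set 1369504_at of Tgfbr1 was below it, with signals between 50.8 and 64.9.

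Cells were type II epithelial cells from the lungs of rat fetuses at embryonic day 19, grown in serum-free medium on silastic membranes with a collagen 1 coat. The rats were of the CD strain and the fetuses of both sexes where the labels give this, which they do for 5 of the 6 cultures. Control cultures (n = 3) stayed unstretched for 16 h, and strained cultures (n = 3) received in every hour 15 min of 5% cyclic strain at 60 cycles per min and then 45 min of 2.5% constant stretch. A litter gave both cultures of a pair, so n is a number of litters, and with so few arrays every value has limited precision. The arrays of pair 1 were run on a day of their own, apart from those of the other pairs. Those of pair 3 came from a chip lot of their own.

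Ligands of the TGF-beta family bind a pair of serine and threonine kinase receptors, and the type I receptor then phosphorylates Smad proteins, which enter the nucleus and bind DNA. BMPs signal through one group of receptor-regulated Smads and the TGF-beta isoforms mainly through another, while Smad7 blocks the receptors of both branches. The Id genes are direct targets of BMP signalling, and their products lack a DNA-binding region and hold basic helix-loop-helix factors away from DNA. In the fetal lung Bmp4 marks the distal tips of the branching epithelium, and TGF-beta signalling acts on branching and on the making of matrix.

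The promoters of Bmp4 and the Id genes are shown because the results turn on this ligand and on the target genes of its branch. The windows run from 250 bases before to 50 bases after the annotated start, from RefSeq on the GRCr8 build, read 5′ to 3′ along the gene's strand. All 10 genes had an entry. Capitals mark matches on either strand to 3 motifs bound by Smads: CAGAC, the GC-rich GGCGCC, and the palindrome GTCTAGAC, none of which overlap one another here.
Bmp4, chr15:22101884-22102183, minus strand: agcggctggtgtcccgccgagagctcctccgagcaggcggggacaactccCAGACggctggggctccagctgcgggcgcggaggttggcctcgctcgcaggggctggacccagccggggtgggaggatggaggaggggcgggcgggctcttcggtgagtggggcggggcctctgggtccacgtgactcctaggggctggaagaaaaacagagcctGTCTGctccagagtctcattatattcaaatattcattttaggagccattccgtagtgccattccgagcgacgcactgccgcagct
Id1, chr3:161671314-161671613, plus strand: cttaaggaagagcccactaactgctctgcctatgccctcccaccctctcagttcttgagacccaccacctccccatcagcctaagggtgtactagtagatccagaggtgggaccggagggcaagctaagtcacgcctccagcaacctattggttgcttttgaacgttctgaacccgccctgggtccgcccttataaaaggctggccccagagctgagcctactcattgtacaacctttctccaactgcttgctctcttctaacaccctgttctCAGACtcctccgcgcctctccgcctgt
Id2, chr6:47470946-47471245, minus strand: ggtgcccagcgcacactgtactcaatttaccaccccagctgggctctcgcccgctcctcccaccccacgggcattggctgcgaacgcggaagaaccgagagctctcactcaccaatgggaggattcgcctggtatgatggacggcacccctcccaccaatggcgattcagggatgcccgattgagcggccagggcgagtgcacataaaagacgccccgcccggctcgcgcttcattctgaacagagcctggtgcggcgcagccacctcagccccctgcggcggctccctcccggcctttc
Id3, chr5:153656041-153656340, plus strand: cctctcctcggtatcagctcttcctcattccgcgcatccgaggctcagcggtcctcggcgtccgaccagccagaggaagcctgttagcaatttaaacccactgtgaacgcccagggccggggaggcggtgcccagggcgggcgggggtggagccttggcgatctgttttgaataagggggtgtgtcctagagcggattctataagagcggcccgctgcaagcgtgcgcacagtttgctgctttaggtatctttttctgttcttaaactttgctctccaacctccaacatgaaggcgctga

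Bmp4 held CAGAC in both orientations upstream of its start and Id1 held it downstream of its start, while these letters were not in the windows of Id2 and Id3. CAGAC was in 50.1% of all 33469 promoter windows of this length, so a match is frequent. GGCGCC was in 11% of the windows and, among the 10 genes, in those of Smad7 and Tgfbr1. GTCTAGAC was in 0.197% of the windows and in none of the 10. The matches describe these letters only, and binding was not measured.

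Bmp4, Tgfb3, Id1 and Id3 were lower in the strained culture of every pair, and both probe sets of Id2 were higher in every pair, but in limma, fitted with the pairs as blocks, 0 of the 14 were called at an adjusted p under 0.05. The same threshold called 0.326% of all 9519 tested probe sets. At an unadjusted p of 0.05 there were 5 of the 14 members, 4 lower and 1 higher, against 9.44% of all tested probe sets. The members were chosen with earlier results of these data known, so these counts are no evidence of an excess. The 4 probe sets lower in all 3 pairs stand beside 16.5% of all tested probe sets, and the 2 higher in all 3 pairs beside 13.7%. The median log2 difference was 0.06 over the 14 members and -0.02 over all tested probe sets, so the members did not move together in one direction. In bulk cultures less RNA per cell and fewer cells of the type that makes it cannot be told apart.

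**Figure D1:**
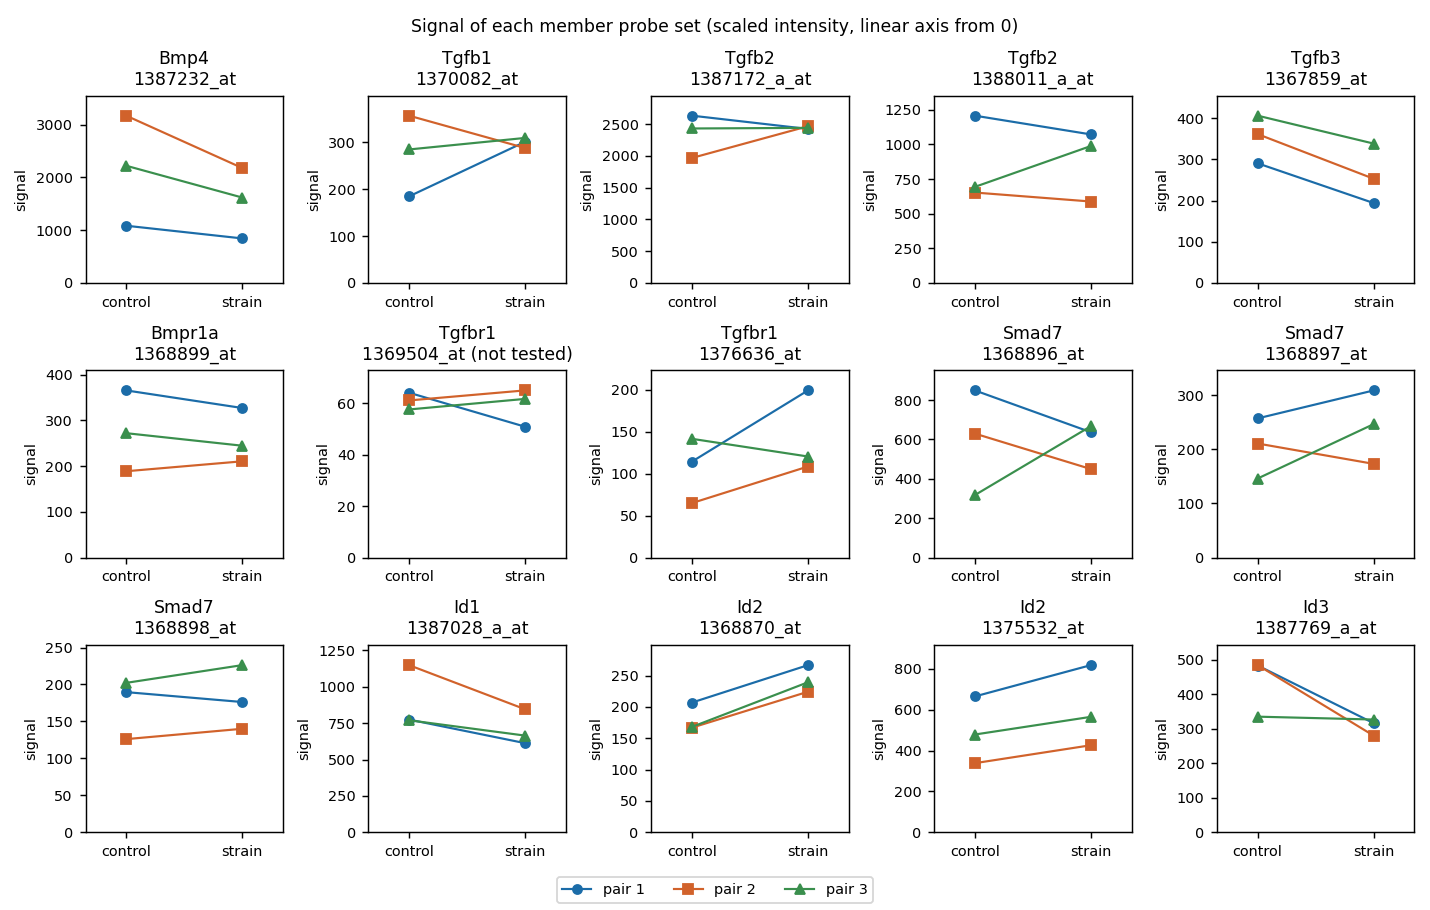
Signal of each of the 15 member probe sets on a linear axis from 0, with a line joining the control and the strained culture of each pair (3 pairs, 1 array per culture). The lines of Bmp4, Tgfb3, Id1 and Id3 all slope down and both panels of Id2 slope up, whereas each panel of Smad7, Tgfb1 and Tgfb2 has lines in both directions.

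Among the ligands, Bmp4 (1387232_at) had the smallest p of all members. Its signal was 1084.4, 3172.1 and 2222.4 in control cultures 1, 2 and 3, and 843.5, 2179.3 and 1618.8 in the strained cultures of the same pairs. The groups overlapped, because the pairs differed more than the conditions did. The highest control was 2.93 times the lowest, a range that 0.903% of tested probe sets reached. Pairs 1 and 2 shared a chip lot, pairs 2 and 3 shared a run day, and each pair had its own litter. Between pairs 1 and 2, litter and run day cannot be told apart. Between pairs 2 and 3, the same holds for litter and chip lot. Within pairs the log2 differences were -0.36, -0.54 and -0.45, which are close to one another. The group means were 2160 ± 1045 (SD, n = 3) for control and 1547 ± 671 (n = 3) for strained cells. The fitted log2 difference was -0.45 ± 0.11 (SE; 95% interval -0.69 to -0.21; limma adjusted p = 0.159), which ranked 94th of 9519. On the second run day alone, which is the fit without pair 1, it was -0.50 ± 0.13 (adjusted p = 0.071), and pair 1 alone made up the first day. The fit without pair 2 gave -0.41 ± 0.18 and an adjusted p of 0.936.

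Tgfb3 (1367859_at), the TGF-beta isoform needed for palate fusion and lung maturation in mice, had the same direction. Its signal was 290.4, 361.3 and 406.1 in control and 193.8, 252.8 and 338.2 in strained cultures of pairs 1, 2 and 3. Strained cultures were the lower ones in each pair, but the groups overlapped. The log2 difference was -0.43 ± 0.16 (95% interval -0.78 to -0.08; limma adjusted p = 0.411), with -0.55, -0.49 and -0.25 in the 3 pairs.

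The other TGF-beta ligands had no common direction. Tgfb1 (1370082_at), a growth inhibitor of epithelium and driver of matrix production, had control signals of 184.5, 356.7 and 284.6 and strained signals of 301.0, 287.7 and 309.2. The strained values lay within the control range, and the difference was 0.66 in pair 1 but -0.30 in pair 2. The fitted log2 difference was 0.16 ± 0.20, with a 95% interval from -0.28 to 0.59. Tgfb2, which is made by embryonic epithelium, had log2 differences of 0.07 ± 0.11 (1387172_a_at, 95% interval -0.18 to 0.32) and 0.06 ± 0.15 (1388011_a_at, 95% interval -0.28 to 0.40). In pair 3 its probe sets parted, at 0.01 and 0.50. For these genes the limma adjusted p lay at 0.88 or above, which does not show that they are unaffected by strain.

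Neither type I receptor had one direction in all 3 pairs. Bmpr1a (1368899_at), which binds BMP ligands, ranged from 188.8 to 365.5 in control and from 210.5 to 327.0 in strained cultures, with a log2 difference of -0.05 ± 0.17 (95% interval -0.42 to 0.32). Tgfbr1 (1376636_at), which carries the TGF-beta signal to the Smads, was dim, at 65 to 141.6 in control and 108.6 to 199.3 in strained cultures. Its control mean of 107 was below the dim filter and its strained mean of 142.8 above it. It was thus tested only through its strained cultures, and its difference is a description. Its log2 difference was 0.38 ± 0.26 (95% interval -0.19 to 0.95), made of 0.72, 0.62 and -0.21 in the 3 pairs. On the untested probe set of Tgfbr1 the pairs gave -0.26, 0.07 and 0.08, so its probe sets had no shared pattern. Neither receptor passed (limma adjusted p of 0.961 and 0.724).

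Smad7, the feedback inhibitor that TGF-beta and BMP signals themselves induce, differed between pairs. On its brightest probe set, 1368896_at, control signals were 848.9, 629.7 and 317.2 and strained signals 636.6, 449.6 and 667.3. The strained culture was lower in pairs 1 and 2. It was higher in pair 3, the only pair on its chip lot, where the control was the lowest of the 6 arrays. These log2 differences of -0.41, -0.47 and 1.04 gave a fitted value of 0.05 ± 0.25 (95% interval -0.49 to 0.60; limma adjusted p = 0.969), which turned to -0.44 ± 0.14 (adjusted p = 0.239) without pair 3. The range of its controls, 2.68 times, was reached by 1.51% of tested probe sets. Pair 3 was also the highest difference on 1368897_at, at 0.70 against 0.25 and -0.26, but on 1368898_at it was 0.15 against -0.10 and 0.14. All 3 probe sets carry the same accession, and their fitted values were 0.05, 0.23 and 0.06.

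**Figure D2:**
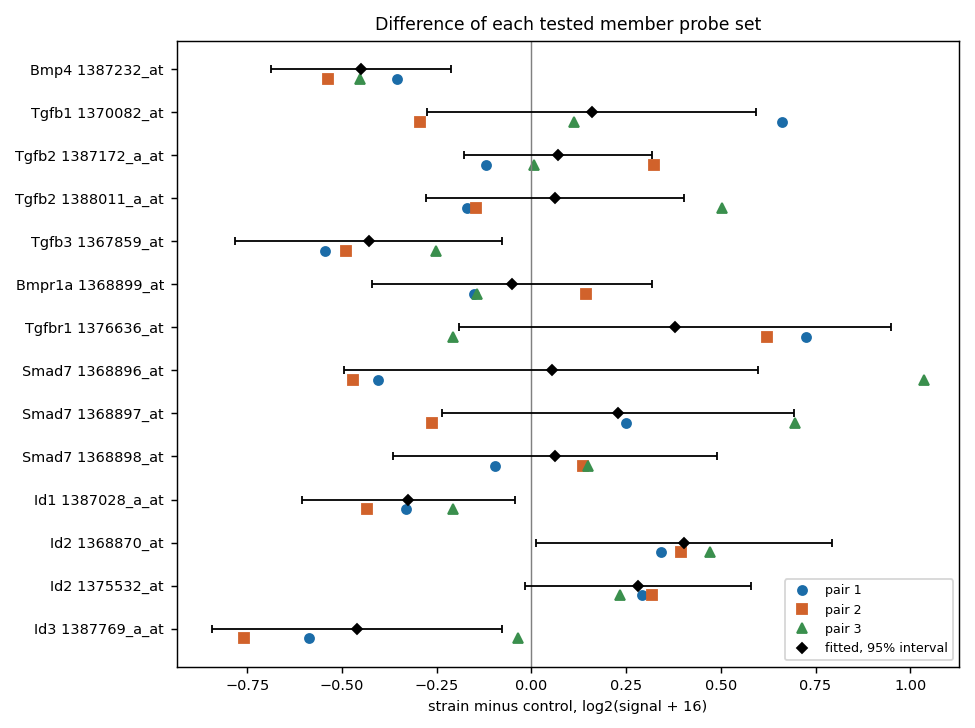
Log2 difference of strained minus control cells for the 14 tested probe sets: coloured points are the 3 pairs and diamonds the limma fit with its 95% interval. Bmp4, Tgfb3, Id1 and Id3 lie to the left of 0 in every pair and Id2 to the right, while Smad7 1368896_at spans from -0.47 to 1.04.

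The Id genes split by direction. Id1 (1387028_a_at) had control signals of 774.3, 1148.0 and 769.5 and strained signals of 612.3, 845.0 and 664.2 in pairs 1, 2 and 3. Each strained culture was below its own control although the groups overlapped, with log2 differences of -0.33, -0.44 and -0.21 and a fitted value of -0.32 ± 0.13 (95% interval -0.61 to -0.04; limma adjusted p = 0.444). Id3 (1387769_a_at) had 482.7, 483.8 and 334.7 in control and 315.7, 279.6 and 326.4 in strained cultures. All its strained values were below all controls, which held in that direction for 3.23% of tested probe sets, but pair 3 differed by only -0.03 against -0.59 and -0.76 in pairs 1 and 2. Its fitted log2 difference was -0.46 ± 0.17 (95% interval -0.84 to -0.08; limma adjusted p = 0.421). Without pair 3, the only pair on its chip lot, it was -0.67 ± 0.16 (adjusted p = 0.136), and on the second run day alone -0.40 ± 0.22.

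Id2, a family member that marks distal tip progenitors in the embryonic lung, was higher under strain. On 1368870_at the controls were 206.9, 166.9 and 168.1 and the strained cultures 266.6, 224.2 and 239.3, so that the groups did not overlap, as was the case in that direction for 2.86% of tested probe sets. The log2 differences were 0.34, 0.39 and 0.47, and the fitted value was 0.40 ± 0.18 (95% interval 0.01 to 0.79; limma adjusted p = 0.509). The second probe set, 1375532_at, had controls of 664.3, 338.2 and 478.2 and strained signals of 817.5, 425.9 and 564.7. Its pairs spread more widely and the groups overlapped, yet the differences within pairs were 0.29, 0.32 and 0.23 (fitted 0.28 ± 0.14; 95% interval -0.02 to 0.58; limma adjusted p = 0.570). The SD of the 3 pair differences was 0.07 and 0.04 on these probe sets, smaller than the SE, which borrows its variance mostly from other probe sets.

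The split can also be described by the ratio of Id2 to Id1 or Id3 within each array. The log2 ratio of Id2 (1368870_at) to Id1 was higher in the strained culture by 0.67, 0.83 and 0.68 in the 3 pairs, a mean of 0.73 ± 0.09 (SD, n = 3 pairs) or 1.66-fold. Against Id3 the same probe set gave 0.93, 1.15 and 0.51 (mean 0.86 ± 0.33). With 1375532_at the means were 0.61 ± 0.16 against Id1 and 0.74 ± 0.42 against Id3. The ratio of Id1 to Bmp4 differed less, by 0.13 ± 0.11, and that of Id3 to Bmp4 by -0.01 ± 0.37 with both signs among the pairs. These 6 ratios were chosen after the values were seen, and the direction of those with Id2 follows from the differences given above, so they are a description with no test.

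**Figure D3:**
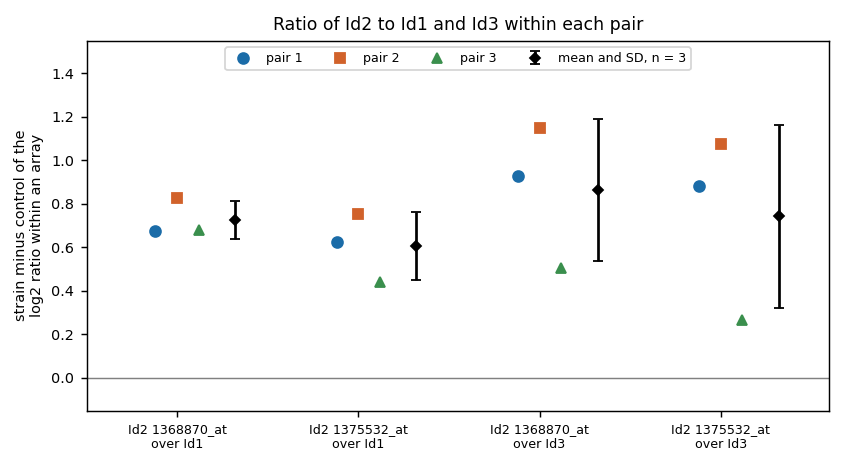
Strained minus control value of the log2 ratio of Id2 to Id1 or Id3 within an array, for both Id2 probe sets; points are the 3 pairs and the diamond with its bar is the mean with the SD. All 12 points lie above 0, from 0.27 to 1.15.

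Compared by role, the TGF-beta ligands had a median log2 difference of 0.07 over 4 tested probe sets, the receptors 0.16 over 2, Smad7 0.06 over 3 and the Id targets -0.02 over 4. The receptor value rests in part on Tgfbr1 (1376636_at), which was tested only through its strained cultures. The receptor median was -0.04 when the filter on dim probe sets was left out or dropped only the dimmest 20%, since the second probe set of Tgfbr1 then enters it. The Id median, which was 0.01 when arrays were scaled by their medians, joins opposite directions, since it is taken over 2 lower and 2 higher probe sets. Bmp4 stood at -0.45. Pair medians of Smad7 were -0.10, -0.26 and 0.70, the widest spread among the roles, with an SD of 0.51. The SD of 0.08 for the Id targets is that of medians over opposite directions. By probe set, the SD of the pair differences ran from 0.04 (Id2 1375532_at) to 0.38 (Id3) for the Id targets. For Smad7 it ran from 0.14 (1368898_at) to 0.85 (1368896_at).

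The rest of the pathway was read from a list of 75 further genes, of which 60 had a probe set and 47 a tested one. Of the 58 tested probe sets none was called, and 5 had an unadjusted p under 0.05, 3 lower and 2 higher, against the 9.44% of all tested probe sets. In all 3 pairs 14 were lower and 8 higher, beside 16.5% and 13.7% of all tested probe sets, and the median log2 difference was -0.05. The 3 lower ones all belonged to the extracellular regulators, which had a median of -0.13 over 17 probe sets, 7 of them lower and 1 higher in all 3 pairs. They were Fstl1 (1371331_at), a secreted follistatin-like protein that dampens BMP4 signalling in the lung, at -0.30 ± 0.09, and Ltbp3 and Ltbp1, which hold latent TGF-beta in the matrix, at -0.36 ± 0.12 and -0.34 ± 0.13 (limma adjusted p from 0.309 to 0.418). The other probe sets of Fstl1 gave -0.24 ± 0.13 and -0.22 ± 0.10 with the same sign in every pair. Since Fstl1 counts with all its probe sets, the 7 lower extracellular probe sets cover 5 of the 13 tested genes of that role.

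Among the other receptors, Smads and targets, the activin receptor gene Acvr2a was at 0.44 ± 0.18 (limma adjusted p = 0.487), Acvr1, which binds BMPs and activin, at -0.20 ± 0.16, and the co-receptor Eng at -0.24 ± 0.44. The BMP Smads Smad5 (1388524_at) and Smad1 (1389373_at) were at -0.25 ± 0.13 and -0.21 ± 0.12 and lower in each pair, and the shared partner Smad4 (1367910_at) was at 0.19 ± 0.14. On this probe set of Smad1 all strained values lay below all controls, as for 3.23% of all tested probe sets. The other tested probe sets of Smad1, Smad4 and Smad5 gave -0.03 ± 0.19, 0.02 ± 0.13 and -0.17 ± 0.19. The TGF-beta targets Tsc22d1, a transcriptional regulator, and Pmepa1, a feedback inhibitor, were at 0.17 ± 0.08 and 0.14 ± 0.08, and Col1a1 (1388116_at), a matrix collagen chain, at 0.18 ± 0.09 with -0.05 ± 0.11 on its other probe set. The inhibin and activin subunit genes Inhbb, Inha and Inhba were at -0.25 ± 0.15, -0.14 ± 0.19 and -0.09 ± 0.20. None of these passed, with limma adjusted p-values from 0.487 to 0.985.

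**Figure D4:**
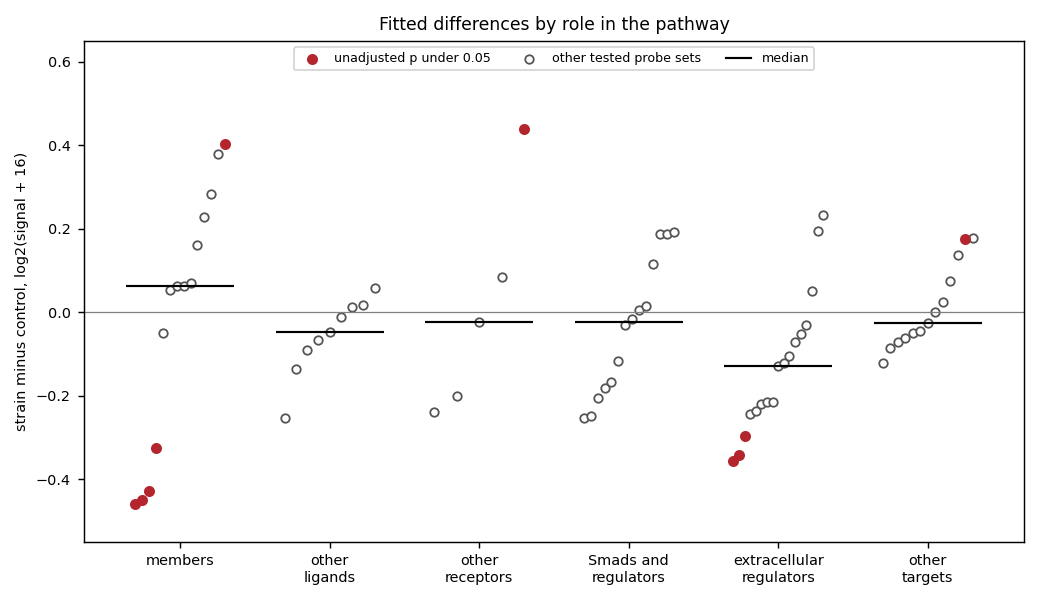
Fitted log2 difference of every tested probe set of the 10 members and of the 5 other roles in the pathway (9 to 17 probe sets for all but the other receptors, which have 5); filled points have an unadjusted p under 0.05 and bars are medians. The filled points are 5 members, 3 extracellular regulators, 1 receptor and 1 target.

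Among all tested genes with 1 symbol, those whose centred log2 profile over the 6 arrays lay nearest to that of Bmp4 were Tnnc1, Fstl1 and Fstl3, at root mean square distances of 0.13, 0.20 and 0.21. For scale, the profile of Bmp4 itself had a root mean square of 0.64 around its mean. Tnnc1, the calcium-binding troponin of slow muscle and heart, had control signals of 581.3, 1411.7 and 972.8 and strained signals of 403.4, 1194.8 and 723.2. As with Bmp4, pair 1 was the lowest and pair 2 the highest in both groups. Between conditions the log2 difference of Fstl3 was -0.13 ± 0.12, so nearness here also reflects differences between the pairs. Nearest to Id1 were Gsn, Mmp23 and Phrf1 (0.05, 0.07 and 0.08), of which Gsn, an actin-severing protein, was at -0.39 ± 0.08 (limma adjusted p = 0.123). C1h19orf81, Mrpl57 and Zfp428 (0.13 to 0.16) were nearest to Smad7 and, like it, had their lowest signal in control 3.

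**Figure D5:**
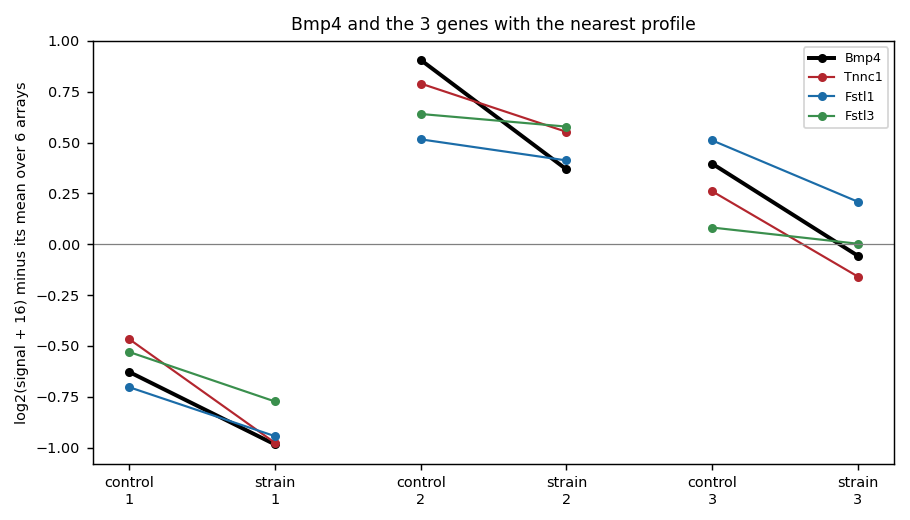
Centred log2(signal + 16) of Bmp4 and of the 3 genes with the nearest profile in each of the 6 arrays, with a line joining the cultures of a pair. Both cultures of pair 1 lie below 0 for all 4 genes, and within each pair the strained culture is the lower one.

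The cells carried epithelial markers throughout, with Epcam between 11144.5 and 13084.0. Of the type II markers, the surfactant gene Sftpc was at 1110.7 to 1357.6 in control and 1562.9 to 2418.1 in strained cultures, but 3 of the 5 tested type II genes were lower in all 3 pairs. These were the phosphate transporter Slc34a2 (log2 difference -0.77 ± 0.20, limma adjusted p = 0.221), the collectin Sftpd (-0.20 ± 0.11) and the lipid transporter Abca3 (-0.16 ± 0.12), while Sftpb was at -0.23 ± 0.16 with both signs among the pairs. Sftpa1 and Napsa were below the dim filter, and the summed type II signal was 4462 to 5844 in control and 4496 to 5958 in strained cultures. Of 5 tested smooth muscle genes 3 were lower in all 3 pairs, beside 16.5% of all tested probe sets. The brightest, Tagln, was at -0.09 ± 0.07 and Cnn1 at -0.35 ± 0.33, each with both signs among the pairs, and Myh11 was below the dim filter. Des was at -0.40 ± 0.19 and Actg2 at -0.49 ± 0.19, each lower in all 3 pairs (limma adjusted p of 0.557 and 0.441). The summed signal of the 6 genes was 18571 to 22859 in control and 14112 to 20687 in strained cultures. This sum was lower in every pair (log2 -0.42, -0.14 and -0.13), and all 5 tested genes had a negative fitted difference. Acta2, the smooth muscle actin, was at 3997.0, 7080.6 and 5298.0 against 1921.5, 4991.2 and 3935.5, with pair 1 the lowest in both groups as for Bmp4 (log2 difference -0.66 ± 0.12, limma adjusted p = 0.0506). Summed fibroblast markers were 5968 to 7386 against 5937 to 7007 with 2 of 7 genes lower and 2 higher in all 3 pairs. The lower ones were Col1a2, at -0.61 ± 0.15 (limma adjusted p = 0.173) and -0.20 ± 0.14 on its probe sets, and Col3a1 at -0.32 ± 0.15. The higher ones were Col1a1 (1388116_at), the brightest of these genes, at 0.18 ± 0.09, and Thy1, which was below the dim filter. Summed leukocyte markers were 1969 to 2661 against 1336 to 2688 with 1 of 8 lower. Summed erythroid markers, Hbb and Alas2, were 229 to 384 against 136 to 326 and lower in every pair (log2 -0.75, -0.94 and -0.24). Hbb, a globin gene and the only one tested, was lower in pairs 1 and 2 and higher in pair 3 (-1.13 ± 0.35, limma adjusted p = 0.308). Alas2, which was below the dim filter, went the other way in each pair. Its signals were 22.6, 22.6 and 116.7 in control and 96.2, 81.2 and 9.8 in strained cultures. All 4 measured endothelial genes were below the dim filter, and no marker was at 0. The part of these cells in the differences of the members was not tested.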

How the data were processed

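The deposited table gives every probe set a linear intensity on each of the 6 arrays, for which the submitters' processing notes name MAS5 5.0 as the tool the authors used. It was already scaled, with 2% trimmed means of 500.129 to 500.148 and medians of 161.7 to 199.0 per array. Each array was set to a trimmed mean of 500 and its signals were transformed as log2(signal + 16), on which differences of dim probe sets are understated. The 57 control probe sets and the dimmest 40% of the others were dropped, which left 9519. The labels' protocols state that RNA was purified on a column, while text files of the array runs state that none was used. These files gave run days and chip lots, which served to find batches.

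limma 3.58.1 under R 4.3.3 was fitted over all 9519 probe sets, with litter pair and group as terms and a variance trend on intensity, and p-values were adjusted by Benjamini-Hochberg at 0.05. Pairing comes from the design text, which gives each pair its own litter. Deviations of same-numbered arrays from their group means correlated at 0.51, 0.47 and 0.44, against -0.35 to -0.12 for other combinations. Deviations within a group cancel by construction, so positive values for same-numbered arrays make the others negative on average. The negative values are thus no separate evidence of pairing. Run day and chip lot were also the same within a pair. Variances rest on 9 prior and 2 residual degrees of freedom. The code was tested on simulated data.

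Of 15866 probe sets, 12783 had 1 symbol in the platform annotation, 312 several and 2771 none. Gene IDs of 12748 were in the RefSeq table, with no differing symbol. Members and lists were chosen with earlier results of these data known. Named were all members, in each pathway role the 3 probe sets with the smallest p, the 3 nearest profiles of Bmp4, Smad7 and Id1, and cell type markers. Col1a1 and Dcn stand in both a pathway and a marker list.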

Additional observations from a re-analysis of the deposited data

How the results depend on the processing

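Across 20 alternatives no member and no other pathway probe set was called in limma. With no replicate block, Bmp4 was at -0.45 ± 0.39 and with run day as the block at -0.45 ± 0.18 (adjusted p of 1 for each). Over the 11 alternatives with all arrays its adjusted p lay between 0.147 and 1. Bmp4, Tgfb3, Id1, Id3 and both Id2 probe sets kept their direction in all 20. So did Tgfbr1 (1376636_at), but it was tested only through its strained cultures and had both signs among its pairs. The alternatives covered pseudocount, dim filter, scaling, variance model, block, and leaving out a pair or, without the pair term, an array. Much of this was fixed in advance. With all arrays, the block, dim filter and variance model cannot alter the fitted difference. Leaving out a pair cannot turn a probe set with one sign in all 3 pairs. When a pair or an array was left out, Bmp4 ranged from -0.876 to -0.069, the ends being the unblocked fits without control 1 and without strained culture 1. Single probe sets changed sign only in these fits: Smad7 from -0.44 to 0.35, from -0.006 to 0.473 and from -0.13 to 0.22 on 1368896_at, 1368897_at and 1368898_at, Bmpr1a from -0.28 to 0.17, Tgfb1 from -0.091 to 0.387, and Tgfb2 from -0.057 to 0.165 and from -0.16 to 0.34 on 1387172_a_at and 1388011_a_at. With all arrays, the median of the receptors turned to -0.037 with the dim filter left out or at 20%, and that of the Id targets to 0.013 with median scaling. With 1 pair fewer, 8 to 9 member probe sets had one direction, since 2 pairs are easier to satisfy than 3. Over all genes the count of calls was 31, and it was 0 with no replicate block, 1 with run day as the block or without the variance trend, 5 without the dim filter, 52 without pair 1 and 9 without pair 2. Detection calls were not used here, so dim probe sets were set aside by mean signal alone.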
